A study of Rattus norvegicus with 3 samples.

Results

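Glycolysis turns glucose into pyruvate and lactate and yields ATP without oxygen, and cells of cartilage, which has no blood vessels, are known to rely on it. Hypoxia-inducible factor 1 (HIF-1) is a transcription factor whose alpha subunit is marked for destruction by prolyl hydroxylases when oxygen is present, and which raises many glycolysis genes when oxygen is low. Neutrophils also live largely from glycolysis, while dividing marrow cells use its intermediates to build new molecules. The 10 genes described here were chosen by their place in this pathway and in the response to HIF-1, as 10 of the 20896 gene names listed in the tables. They are the glucose transporter Slc2a1, the enzymes Aldoa, Tpi1, Gapdh, Pgk1, Eno1, Pkm and Ldha in the order of the pathway, the prolyl hydroxylase Egln3, which is both an oxygen sensor and a HIF-1 target, and the HIF-1 target Ankrd37. Each had 1 Ensembl identifier, the same in every library, such as ENSRNOG00000018630 for Gapdh and ENSRNOG00000011329 for Pkm.

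The study asked how mechanical stress and miR-330 act in osteoarthritis of the temporomandibular joint, the joint of the jaw. Wild-type SD rats, 24 in all, formed 3 groups of 8. The sham group (the control group of the labels) had a Vector AAV, an adeno-associated virus without miR-330, injected into the joint and no crossbite. The UAC group had the Vector AAV and unilateral anterior crossbite, a dental model of abnormal joint loading, kept for 8 weeks, and the UAC with miR-330 group had the crossbite and an AAV carrying miR-330. Only the series' design names miR-330 for that group, since the sample's own labels call it the UAC treatment group. From each group the 16 condyles, cartilage and subchondral bone together, were mixed into 1 single-cell library, so that animals of a group cannot be told apart. Each condition therefore has 1 library, and no difference between conditions has a replicate check or a test. Mature rat miR-330 has 2 arms, and which of them the vector was meant to supply is not stated in the labels. They are shown here, from RefSeq on GRCr8, because miR-330 is the agent that separates the UAC libraries; capitals mark the seed, bases 2 to 8.
rno-miR-330-5p, chr1:87961227-87961248, plus strand: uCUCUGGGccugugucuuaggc
rno-miR-330-3p, chr1:87961266-87961288, plus strand: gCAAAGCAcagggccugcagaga

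The sham library held 77668015 unique molecular identifiers (UMIs, 1 per captured molecule) in 15 clusters, UAC 92629658 in 18 and UAC with miR-330 97255383 in 19. Levels are given as UMIs per 1000000 UMIs of the same cells (CPM), with exact Poisson 95% intervals that cover counting error only. Each UMI marks the 3′ end of 1 molecule, so that levels of different genes can be set side by side without regard to length. Clusters were named from fixed marker genes. A skeletal-like cluster with chondrocyte, osteogenic and fibroblast markers together (clusters 12, 16 and 17) took 11.6% of the UMIs of sham, 6.46% of UAC and 6.05% of UAC with miR-330. Neutrophil-like clusters took 10.05%, 15.9% and 10.6% in the same order, and B-lineage-like clusters 57.4%, 47.9% and 45.6%. An erythroid-like cluster was named in UAC (cluster 11, 14.9%) and in UAC with miR-330 (cluster 11, 15.8%).

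The erythroid-like clusters were not pure. Their 14 listed erythroid markers summed to 2157 CPM in UAC and 3765 in UAC with miR-330, with Hba-a1 the most abundant, while the 15 listed B markers summed to 8212 and 8676 CPM, with Ebf1 the most abundant, and the 9 cycling markers to 2708 and 3825 CPM. Cluster 13 of sham (14.6% of its UMIs), led by Hbe1, Car1 and Tal1 among others, had the same mixture, with erythroid markers at 818 CPM, B markers at 8235 CPM and cycling markers at 2929 CPM, but only 2 enriched erythroid markers. It met the rule for the B lineage, was led by more markers of another class, and is therefore given by its number. A cluster is called led by a gene that was among its 10 leading genes by fold over the rest of its library, and the Fcnb-led cluster with macrophage markers (cluster 15 of sham, 9 of UAC and 10 of UAC with miR-330) is given by that gene. Clusters without a name held 1.99% of the UMIs of sham besides cluster 13, 6.20% of UAC, and 12.1% of UAC with miR-330 besides a Dntt-led cluster of 3.71%, and 2.36% of UAC was a T and NK-like cluster. Cluster 18 of UAC with miR-330 had 8 enriched neutrophil markers and stayed without a name because it also had 5 mast and basophil markers.

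The labels name chondrocytes and osteoclasts as the cell types, and the data hold a cluster with markers of the first but none named for the second. Of the osteoclast markers 9, 10 and 9 were listed in sham, UAC and UAC with miR-330. They summed to 305, 304 and 274 CPM over the whole libraries, with Acp5 the most abundant. In the skeletal-like clusters they summed to 394, 503 and 415 CPM, with Nfatc1, Ctsk and Nfatc1 the most abundant in the same order. Ocstamp, Atp6v0d2 and Calcr were without a UMI in each of these clusters. B-lineage-like clusters held the largest share of UMIs in each library.

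Slc2a1, which carries glucose across the plasma membrane, stood at 54.9 in sham, 54.2 in UAC and 62.7 in UAC with miR-330 (CPM) in the skeletal-like cluster, with intervals of 50.1 to 59.9, 48.4 to 60.4 and 56.5 to 69.4. In B-lineage clusters it was at 17.1, 14.3 and 16.4 CPM in the same order of libraries, and in the erythroid-like clusters at 12.4 and 13.4 CPM in UAC and UAC with miR-330. Cluster 14 of UAC and cluster 8 of UAC with miR-330, which had 10 B markers over their skeletal level but stayed unnamed because of 3 and 4 dendritic ones, held 135 and 81.5 CPM. Neutrophil-like clusters held 12, 31 and 21 UMIs of it, or 1.54, 2.11 and 2.03 CPM. The transporter was thus far lower in neutrophils, where it rests on few UMIs, than in skeletal-like cells in every library. Its highest level lay in the Fcnb-led cluster, at 146, 228 and 129.96 CPM, above every other cluster of the same library with intervals apart.

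Of the enzymes, Aldoa (aldolase A, which splits fructose 1,6-bisphosphate) was at 799 in sham, 673 in UAC and 555 in UAC with miR-330 (CPM) in skeletal-like cells and at 724, 678 and 580.3 CPM in neutrophils. The intervals of both classes overlapped in UAC (652 to 694 and 665 to 692) and in UAC with miR-330 (537 to 575 and 566 to 595), while skeletal-like cells were higher in sham (781 to 818 and 705 to 743). Erythroid-like clusters held 282 and 191 CPM and B-lineage clusters 157, 141 and 83.8 CPM. Tpi1 (triosephosphate isomerase) set skeletal cells apart more than Aldoa did. It was at 105, 90.6 and 66.6 CPM in the skeletal-like cluster, 15.4, 19.5 and 9.87 CPM in neutrophils and 10.3, 9.89 and 4.62 CPM in B-lineage clusters. The erythroid-like clusters, at 49.3 and 28.5 CPM, came second among the 4 classes in both libraries that had one.

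Gapdh (glyceraldehyde-3-phosphate dehydrogenase) was the most abundant of the 7 enzymes in skeletal-like and neutrophil-like cells of every library and in both erythroid-like clusters. It stood at 1613 in sham, 1328 in UAC and 1203 in UAC with miR-330 (CPM) in the skeletal-like cluster and at 1067, 976 and 902 CPM in neutrophils. In erythroid-like clusters it was at 1014 and 831 CPM and in B-lineage clusters at 323, 239.99 and 171 CPM. Within the B lineage the cycling clusters held 711, 513 and 422 CPM and the clusters led by Ms4a1, which encodes the B-cell surface protein CD20, 185, 131 and 97.1 CPM. Pgk1 (phosphoglycerate kinase, which makes ATP) was at 907, 745 and 755 CPM in skeletal-like cells, 421, 393 and 409.9 CPM in neutrophils and 212, 175 and 124 CPM in B-lineage cells. For Pgk1 the erythroid-like clusters, at 575 and 469 CPM, lay between skeletal cells and neutrophils.

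Eno1 (enolase 1) was at 590.4, 524 and 547 CPM in skeletal-like cells, 297, 309 and 304 CPM in neutrophils and 104, 87.6 and 78.98 CPM in B-lineage cells. Erythroid-like clusters, at 322 and 310.3 CPM, were close to neutrophils. Pkm (pyruvate kinase M, the last step to pyruvate) was listed at far lower levels than its neighbours in the pathway. It stood at 61.1 in sham, 74.2 in UAC and 178 in UAC with miR-330 (CPM) in skeletal-like cells, 49.7, 65.3 and 142 CPM in neutrophils, 20.1 and 36.7 CPM in the erythroid-like clusters of UAC and UAC with miR-330, and 9.40, 11.04 and 15.7 CPM in B-lineage cells. Its level was highest in UAC with miR-330 in every class. Ldha (lactate dehydrogenase A, which turns pyruvate into lactate) was at 1271, 1113 and 960.4 CPM in skeletal-like cells and 834, 790.00 and 702 CPM in neutrophils. Erythroid-like clusters held 809.9 and 632 CPM of Ldha and B-lineage clusters 342, 299 and 202 CPM, where it was the most abundant of the 7 as listed and over the whole class, while Gapdh was the most abundant in the cycling clusters of all 3 libraries and in the Dntt-led clusters of sham and UAC.

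Summed over the 7 enzymes, the skeletal-like cluster held 5346 CPM in sham (5299 to 5394), 4547 in UAC (4493 to 4601) and 4266 in UAC with miR-330 (4213 to 4319). Neutrophils held 3407 CPM in sham, 3232 in UAC (3203 to 3261) and 3051 in UAC with miR-330. The erythroid-like clusters held 3073 CPM in UAC (3044 to 3102) and 2498 in UAC with miR-330, and B-lineage clusters 1158, 962 and 681 CPM. The order skeletal, neutrophil, erythroid, B therefore held in both libraries with all 4 classes, and skeletal, neutrophil, B in sham. Outside these classes, the Fcnb-led cluster held 3201 CPM in sham, 3201 in UAC (3156 to 3247) and 2670 in UAC with miR-330. It lay above the erythroid-like cluster in both UAC libraries, and in UAC its interval overlapped that of neutrophils. Single genes departed from the order of the classes. With intervals apart, erythroid-like cells lay above neutrophils for Tpi1 and Pgk1 in both UAC libraries and for Gapdh in UAC (997 to 1031 against 960.5 to 992), and neutrophils below every other class for Slc2a1. Counted with LOC108351137, an entry described below, Gapdh had overlapping intervals in these classes of UAC (1749 to 1793 and 1726 to 1769). Neighbouring classes had overlapping intervals for Slc2a1 (erythroid-like and B-lineage cells of both UAC libraries), Eno1 (erythroid-like cells and neutrophils of both), Ldha (the same classes in UAC) and Pkm (skeletal-like cells and neutrophils of UAC), besides Aldoa.

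**Figure D1:**
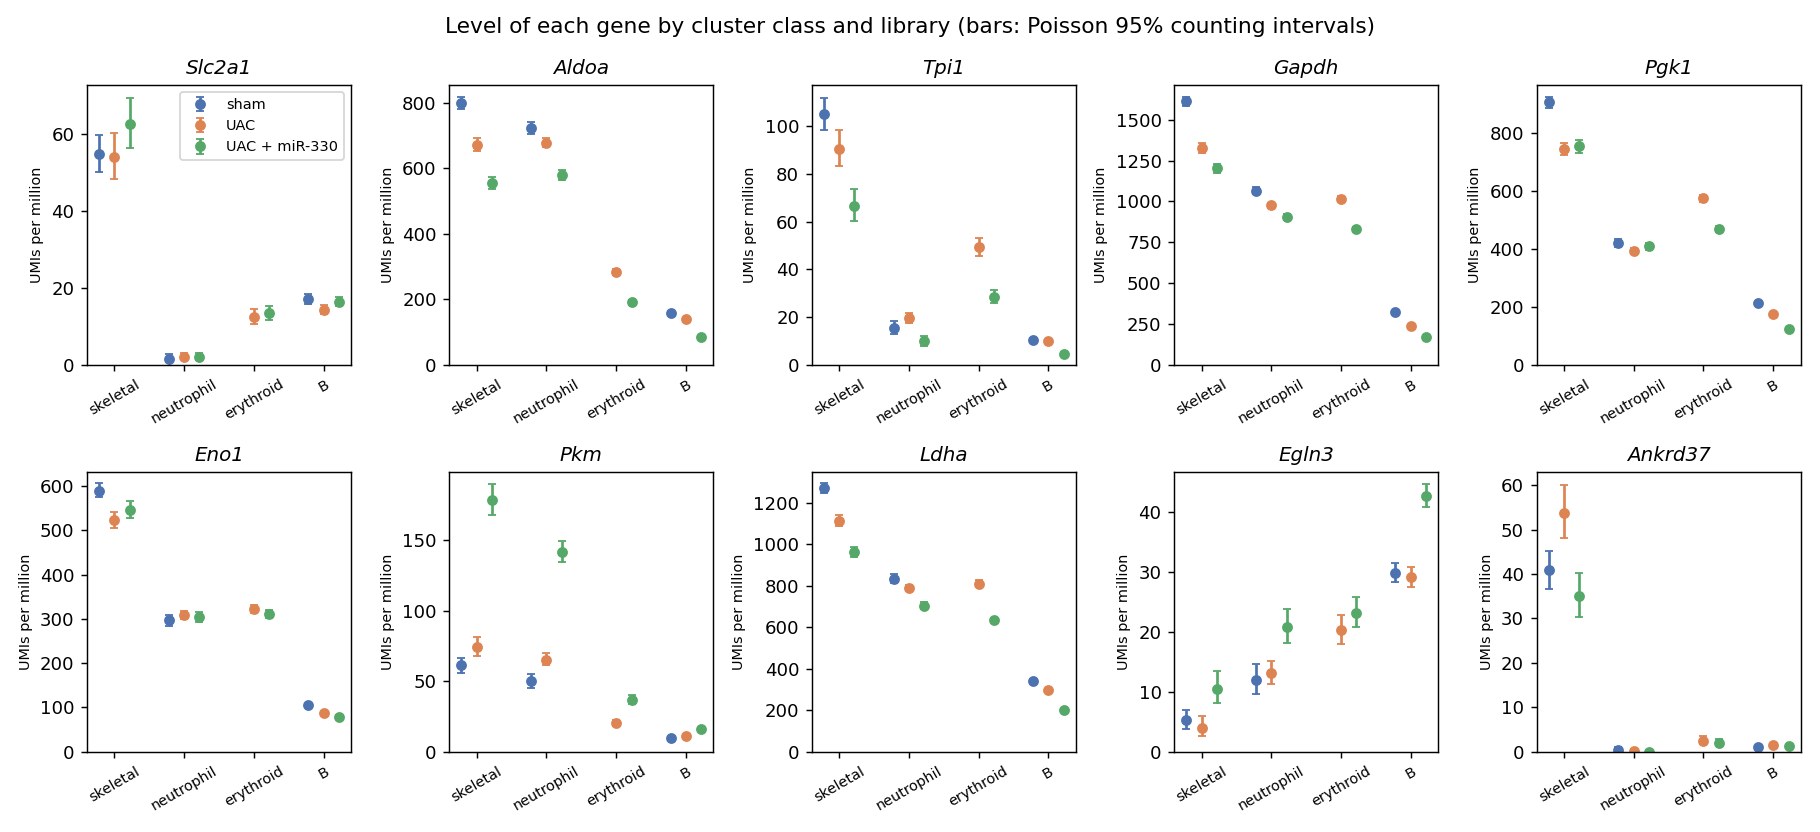
Levels of the 10 genes (CPM, linear axes that differ between genes) in the skeletal, neutrophil, erythroid and B classes of the sham, UAC and UAC with miR-330 libraries, with exact Poisson 95% intervals as bars. Gapdh runs from 171 in B-lineage cells of UAC with miR-330 to 1613 in skeletal-like cells of sham, while Egln3 is highest in B-lineage cells and Ankrd37 in skeletal-like cells.

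The oxygen-linked genes had patterns of their own. Among the 4 classes Egln3 was lowest in skeletal-like cells, where the 7 enzymes summed highest. These cells held 47, 24 and 62 UMIs, or 5.21, 4.01 and 10.5 CPM, and the Fcnb-led cluster 5.02, 2.73 and 2.67 CPM. B-lineage clusters held 29.9, 29.2 and 42.7 CPM, neutrophils 11.9, 13.1 and 20.8 CPM and erythroid-like clusters 20.3 and 23.2 CPM. Its highest cluster in every library was the Ms4a1-led B cluster, at 59.1, 56.4 and 82.1 CPM, with intervals apart from the next cluster. Ankrd37 was highest in skeletal-like cells, at 40.8 in sham, 53.8 in UAC and 35.00 in UAC with miR-330 (CPM), and these clusters held 80.5%, 72.9% and 64.2% of its UMIs in the library. It was at 0.942, 1.37 and 1.22 CPM in B-lineage clusters and at 2.47 and 2.02 CPM in erythroid-like clusters. Overlapping neighbours were the erythroid-like and neutrophil-like cells of UAC with miR-330 for Egln3, and, for Ankrd37, the neutrophil-like and B-lineage cells of sham and the erythroid-like and B-lineage cells of both UAC libraries. Neutrophils held 3, 3 and 0 UMIs of Ankrd37, at or under the 3 UMIs below which no ratio between clusters of 1 library is given.

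Across the 52 clusters of the 3 libraries, on log2(CPM + 5) centred within each library, the 21 pairs of enzymes correlated with Pearson's r between 0.65 and 0.95 (median 0.85). Ankrd37 correlated with the 7 enzymes with r between 0.20 and 0.64, Slc2a1 with r between -0.14 and 0.25, and Egln3 with r between -0.67 and -0.50. Clusters of 1 library share cells' handling and depth, so these are descriptions. Skeletal-like clusters held the highest level of Tpi1, Gapdh, Pgk1, Eno1, Ldha and Ankrd37 in all 3 libraries. The next cluster lay below with intervals apart for these genes, except Gapdh in UAC with miR-330, where neutrophil cluster 15 at 1139.6 CPM overlapped it. For Aldoa the Fcnb-led cluster led in sham (842 CPM) and UAC (881 CPM) without clear separation from the next, and neutrophil cluster 15 led in UAC with miR-330 (666 CPM). For Pkm an Ifit3-led neutrophil cluster led in sham (66.2 CPM) and UAC (98.9 CPM), and the skeletal-like cluster in UAC with miR-330, with overlapping intervals in sham and in UAC with miR-330.

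**Figure D2:**
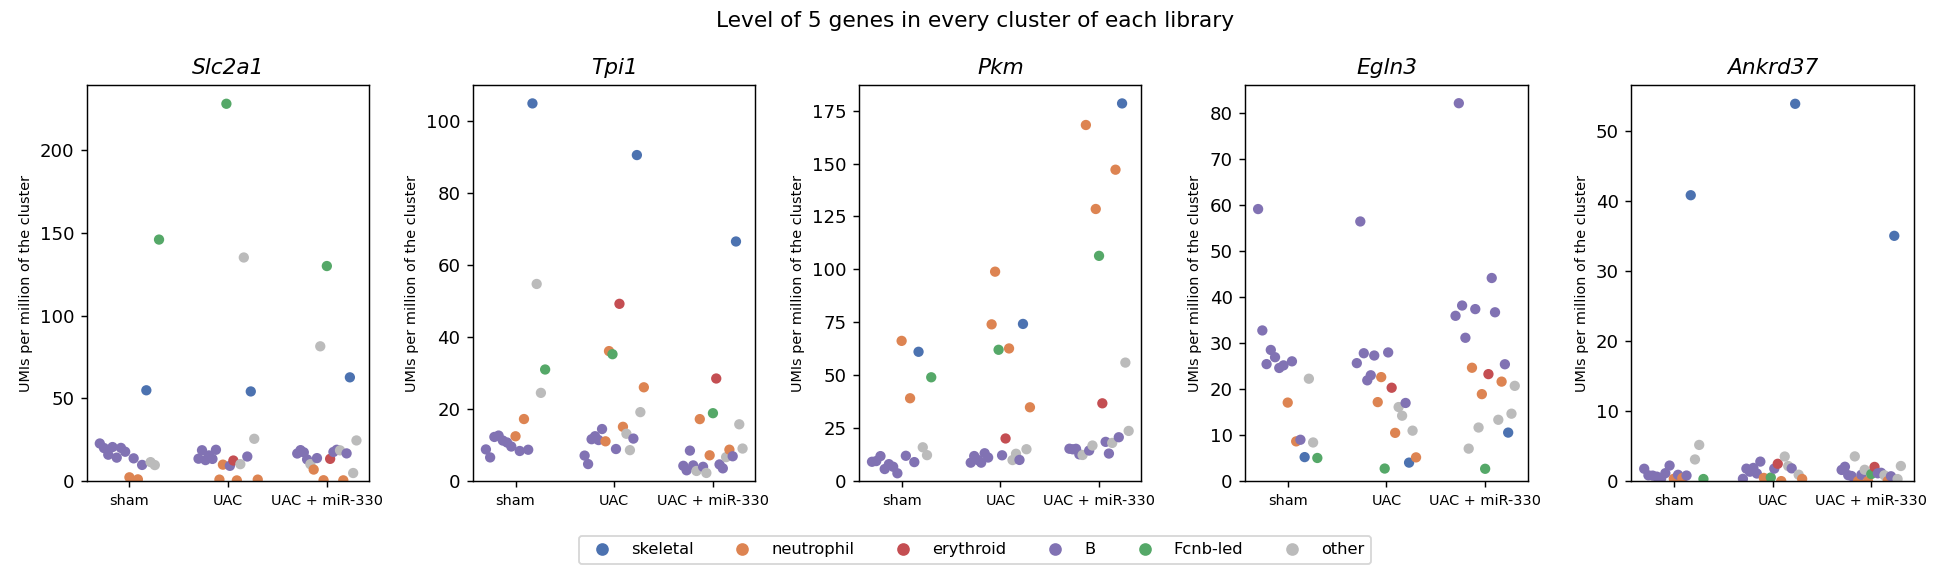
Levels of Slc2a1, Tpi1, Pkm, Egln3 and Ankrd37 in each of the 52 clusters (CPM of the cluster, linear axes that differ between genes), 1 point per cluster, by library and coloured by class, with unnamed and T and NK-like clusters in grey. The skeletal-like cluster is the highest point of each library for Tpi1 and Ankrd37, the Fcnb-led cluster for Slc2a1 and the Ms4a1-led B cluster for Egln3.

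Among 8954 other genes with at least 500 UMIs in each library, the 5 whose profile was most like the mean of the 7 enzymes were AABR07044711.1 (r = 0.94), the glycolytic Pgam1 (0.93), LOC108351137 (0.93), Reep5 (0.92) and Tsen34l1 (0.91), over 52 clusters. Pgam1, phosphoglycerate mutase, is the enzyme between Pgk1 and Eno1 and was not among the 10 genes. For the mean of Egln3 and Ankrd37 the 5 were Sox5 (0.80), Casc4 (0.80), Pxylp1 (0.76), Wnt4 (0.76) and Tiam2 (0.75). Egln3 and Ankrd37 themselves correlated with r = -0.32, so that their mean is not a profile they share. Taken alone, Egln3 was most like Pip5k1b (0.84) and Ankrd37 most like Tspan6 (0.97).

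The entries AABR07044711.1 and LOC108351137 were set beside Pkm and Gapdh after their values had been seen. RefSeq lists copies or pseudogenes for 8 of the 10 genes, 91 for Gapdh, 34 for Eno1, 31 for Ldha, 20 for Pkm, 9 each for Aldoa and Pgk1, 5 for Tpi1 and 1 for Ankrd37, and reads of a gene and its near-identical copy may be split between them, so that levels of these 8 are uncertain. LOC108351137 (ENSRNOG00000030963) followed Gapdh alone with r = 0.998. Gapdh made up 59.6% of the summed UMIs of the pair in skeletal-like cells of sham, 59.2% in neutrophils and 60.1% in B-lineage cells. In UAC these shares were 57.6%, 55.9% and 57.03%, and in UAC with miR-330 63.7%, 62.8% and 63.1%. The share was thus nearly constant among cell classes of a library and differed between libraries. In B-lineage cells the pair stood at 538, 421 and 271 CPM, above Ldha.

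AABR07044711.1 (ENSRNOG00000047276) followed Pkm with r = 0.97 and Aldoa with r = 0.97, so that it was as close to the one as to the other, and the tables do not say what it encodes. Its level in skeletal-like cells was 859, 711 and 521 CPM in sham, UAC and UAC with miR-330, while Pkm went from 61.1 to 178 CPM. Pkm made up 6.64, 9.45 and 25.5% of the summed UMIs of the pair in skeletal-like cells and 6.65, 9.68 and 22.2% in neutrophils. In B-lineage cells the shares were 14.6, 19.1 and 36.6%, and in erythroid-like cells 11.9% in UAC and 30.5% in UAC with miR-330. The share of Pkm was highest in UAC with miR-330 in all 4 classes. Summed, the pair stood at 920.3, 785 and 699 CPM in skeletal-like cells, 748, 675 and 638 CPM in neutrophils and 64.5, 57.9 and 43.00 CPM in B-lineage cells, lowest in UAC with miR-330 each time. AABR07044711.1 held most of the UMIs of the pair in every class, so that the sum mainly shows its level. Whether molecules of Pkm or of Aldoa were counted to AABR07044711.1 was not tested, and the entry was summed with Pkm only.

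Each step of the pathway can be served by related enzymes, and the classes differed in which of their genes held most UMIs. Shares are of the UMIs listed for the family, in sham, UAC and UAC with miR-330. They describe RNA and not use of the proteins. Slc2a1 made up 95.6%, 89.8% and 98.1% of the UMIs of 4 glucose transporters in skeletal-like cells, while Slc2a6 made up 93.7%, 91.9% and 93.98% in neutrophils. For hexokinase, which traps glucose in the cell, Hk2 led in skeletal-like cells (80.3%, 72.9% and 68.1%) and Hk3 in neutrophils (71.99%, 71.7% and 64.98%). In the erythroid-like clusters Hk1 held 48.5% (exact binomial 95% interval 44.8 to 52.2) in UAC and 66.6% (63.96 to 69.1) in UAC with miR-330. Of the phosphofructokinases, Pfkl held 86.9%, 86.8% and 96.6% in neutrophils and Pfkp 47.6%, 52.1% and 58.00% in B-lineage cells. Of the enzymes that make the regulator fructose 2,6-bisphosphate, Pfkfb3 held 90.9%, 90.04% and 92.9% in skeletal-like cells and Pfkfb2 66.2%, 71.4% and 71.9% in B-lineage cells. Skeletal-like cells and neutrophils thus differed in their leading glucose transporter and hexokinase by UMIs in every library.

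Aldoc added 9.40%, 10.98% and 11.1% of the aldolase UMIs in skeletal-like cells and under 1% in the other classes. Eno3, the muscle form, added 6.10%, 9.10% and 6.55% of the enolase UMIs in skeletal-like cells. Pklr, the pyruvate kinase of liver and red cells, held 36.5% and 30.5% of the UMIs listed for pyruvate kinases in the erythroid-like clusters of UAC and UAC with miR-330, but 6.396% (5.47 to 7.43) and 11.79% (10.4 to 13.2) with AABR07044711.1 added to the family, where the order of the libraries is the opposite. It had no UMI in skeletal-like cells or neutrophils, where the exact binomial 95% interval reaches at most 0.946%. Ldhb held 14.8%, 15.5% and 18.6% of lactate dehydrogenase UMIs in B-lineage cells and 12.6% and 10.9% in erythroid-like cells, against 0.486%, 0.627% and 0.527% in skeletal-like cells. The exit of lactate from the cell is the next step. The exporter Slc16a3 held 91.8%, 83.00% and 82.2% of the UMIs of 3 monocarboxylate transporters in skeletal-like cells and 96.2%, 95.3% and 95.03% in neutrophils, while Slc16a1 held 78.1% and 85.7% in erythroid-like cells.

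Among the prolyl hydroxylases, Egln3 made up 31.9%, 34.5% and 45.6% of the UMIs in B-lineage cells and 10.02%, 9.02% and 17.5% in skeletal-like cells, where the intervals were 7.46 to 13.1, 5.87 to 13.1 and 13.7 to 21.8. Egln2 made up 47.3%, 44.4% and 28.2% in skeletal-like cells and 47.99%, 43.7% and 34.9% in B-lineage cells, lowest in UAC with miR-330 in both. Hif1a was at 522, 517 and 775 CPM in skeletal-like cells, 80.6, 94.7 and 109.97 CPM in neutrophils and 84.01, 92.8 and 112 CPM in B-lineage cells, and it held at least 97.6% of the UMIs of the HIF alpha subunits in these and the erythroid-like cells. Of the pyruvate dehydrogenase kinases, which inhibit pyruvate dehydrogenase, Pdk3 held 96.3%, 96.04% and 96.6% in neutrophils. Pdk1, a HIF-1 target, held 40.2%, 30.1% and 30.2% in skeletal-like cells, and Pdk4 8.01%, 9.96% and 19.8%.

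The comparison of UAC with sham asks what the crossbite changed. A gene was counted as changed where its CPM differed by at least 1.5-fold with Poisson intervals apart, provided both libraries together held 50 or more UMIs of it. Ratios are log2 ratios of CPM after 0.5 UMIs were added. In the skeletal-like cluster all 10 genes had that many UMIs, and 0 were higher and 0 lower by this rule, while 7.3% of all 10052 genes tested were higher and 0.935% lower. The median log2 ratio of the 10 was -0.20, against 0.14 over all genes tested. Gapdh had a log2 ratio of -0.28 (95% interval -0.32 to -0.24). Pgk1, with -0.28, and Aldoa, with -0.25, were similar in size. On the other side, Ankrd37 had 0.40 (95% interval 0.18 to 0.62) and Pkm 0.28 (95% interval 0.10 to 0.46). Counted with LOC108351137, Gapdh gave -0.23 (-0.26 to -0.20). Pkm and AABR07044711.1 together gave -0.23 (-0.28 to -0.18), in the opposite direction to the listed Pkm. In CPM the ratios of 8 of the 10 genes were below 0, all within 1.5-fold and those of Slc2a1, Tpi1 and Egln3 with overlapping Poisson intervals, and so were the ratios of 32.5% of all genes tested. On the deposited means 5 of the 10 were below 0, and Ankrd37, at 0.60 (0.38 to 0.82), passed 1.5-fold.

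In neutrophils 8 of the 10 genes had enough UMIs, Slc2a1 and Ankrd37 being too low, and 0 were higher and 0 lower, beside 1.47% and 1.44% of 8136 genes. Their median was -0.01, against 0.01 over all genes tested. Pkm had the largest ratio, 0.39 (95% interval 0.22 to 0.57), and Gapdh the lowest, -0.13 (95% interval -0.17 to -0.09). Counted with LOC108351137, Gapdh gave -0.04 (-0.07 to -0.01), above Pgk1 (-0.10) and Aldoa (-0.09). Counted with AABR07044711.1, Pkm gave -0.15 (-0.20 to -0.10), and on the deposited means Pkm as listed, at 0.59, passed 1.5-fold. The class held 2 clusters in sham and 4 in UAC, and clusters matched by leading gene differed for Tpi1, which gave 1.53 (0.96 to 2.13) in Ifit3-led but -0.19 (-0.67 to 0.28) in Ngp-led clusters, for Ldha, with 0.31 (0.23 to 0.39) and -0.12 (-0.18 to -0.05), and for Aldoa, with -0.30 (-0.40 to -0.21) and 0.06 (-0.01 to 0.13). Gapdh differed too, with -0.34 (-0.42 to -0.26) in Ifit3-led and -0.17 (-0.23 to -0.11) in Ngp-led clusters. Pkm gave 0.58 (0.30 to 0.86) and 0.68 (0.41 to 0.95) in them, with overlapping intervals. In B-lineage cells 10 genes were tested and 0 were higher and 0 lower, beside 2.16% and 1.82% of 12230 genes. Their median was -0.18, against 0.03 over all genes tested. Gapdh was lowest at -0.43 (95% interval -0.46 to -0.39). The cycling B clusters alone gave -0.47 (-0.52 to -0.42) and the Ms4a1-led ones -0.49 (-0.62 to -0.36). The remaining ones without Dntt gave -0.21 (-0.29 to -0.13), with an interval apart from that of the cycling clusters. With LOC108351137 Gapdh gave -0.35 (-0.38 to -0.33). Pkm gave 0.23 as listed and -0.16 (-0.23 to -0.08) with AABR07044711.1. Slc2a1 gave -0.26 (95% interval -0.41 to -0.10), but 0.25 (0.11 to 0.39) with the unnamed cluster 14 of UAC added, a choice made after seeing the data. Cluster 13 of sham and cluster 11 of UAC, set side by side by number, gave -0.44 (-0.48 to -0.41) for Gapdh, from 1378 to 1014 CPM, and 0.33 (0.06 to 0.61) for Pkm, from 15.97 to 20.1 CPM. In B-lineage cells the 16 neutrophil markers, none at 0, summed to 2022 CPM in sham and 2913 in UAC, with S100a9 the most abundant, the 14 listed erythroid markers, none at 0, to 470.1 (Hba-a1) and 112 (Tfrc), and the 11 listed T and NK markers, none at 0, to 112 and 52.7 (Cd3g). Their part in these ratios was not tested.

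Markers of other cells moved beside the skeletal values. The 16 neutrophil markers summed to 1267, 4412 and 875 CPM in the skeletal-like clusters of sham, UAC and UAC with miR-330, with S100a9, S100a9 and S100a8 the most abundant, and 14, 16 and 15 of them had a UMI (Ltf and Prtn3 were at 0 in sham, Ltf in UAC with miR-330). The 9 listed endothelial markers summed to 76.1, 8.70 and 7.65 CPM, with 9, 5 and 3 of them above 0, Emcn the most abundant in sham and Egfl7 in the others, Cdh5, Kdr, Emcn and Tek at 0 in UAC and these with Flt1 and Esam at 0 in UAC with miR-330. Chondrocyte markers summed to 63466, 50574 and 66304 CPM, with Col2a1 the most abundant, osteogenic markers to 70873, 61416 and 61729 CPM, with Col1a1 the most abundant, and cycling markers to 178, 396 and 218 CPM. Muscle markers, of which 5, 5 and 6 were listed, summed to 133, 33.6 and 91.6 CPM, with Tnni2 the most abundant and Myh2, Acta1 and Myh2 at 0 in the same order. The part of these markers in the ratios of the 10 genes was not tested. Mitochondrial UMIs were 4.34%, 4.39% and 4.30% of the skeletal-like clusters. In these clusters Fos was at 819, 1256 and 1264 CPM, Jun at 409, 793 and 602 CPM and Hspa8 at 873, 836 and 662 CPM. In neutrophils Fos was at 98.3, 132 and 299 CPM in the same order. In erythroid-like cells it was at 41.6 CPM in UAC and 78.5 CPM in UAC with miR-330. The part of Fos, Jun and Hspa8 in the ratios was not tested.

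The comparison of UAC with miR-330 against UAC asks what the added miR-330 changed in crossbite joints. It shares the UAC library with the comparison against sham, and the ratios of each are given for themselves. In the skeletal-like cluster 2 of the 10 genes rose and 1 fell, beside 6.51% and 5.62% of 9798 genes. Pkm rose by 1.26 (95% interval 1.10 to 1.43) on the log2 scale, from 74.2 to 178 CPM. Pkm and AABR07044711.1 together, however, gave -0.17 (-0.23 to -0.11), lower where the listed Pkm was higher. AABR07044711.1 held most of these UMIs and alone gave -0.45 (-0.52 to -0.38). Gapdh gave -0.14 as listed and -0.29 (-0.33 to -0.25) with LOC108351137. Egln3 rose by 1.37 (95% interval 0.69 to 2.14), on 24 and 62 UMIs, while Ankrd37 fell, with -0.62 (95% interval -0.88 to -0.36), from 53.8 to 35.00 CPM. On the deposited means Ankrd37 gave -0.38 (-0.64 to -0.13), inside 1.5-fold, and Egln3 1.61, so that the ratios of these HIF-1 targets had opposite signs on both scales but 2 genes, not 3, passed the rule. The median of the 10 was -0.06, against 0.02 over all genes tested. Neutrophil markers in this cluster were 4412 CPM in UAC and 875 in UAC with miR-330, and their part in these ratios was not tested.

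In neutrophils 9 genes were tested, 2 rose and 1 fell, beside 17.3% and 7.94% of 8324 genes. Pkm rose by 1.12 (95% interval 1.00 to 1.24), Egln3 rose by 0.67 (95% interval 0.38 to 0.95), and Tpi1 fell, with -0.98 (95% interval -1.32 to -0.65), from 19.5 to 9.87 CPM. Gapdh gave -0.11 as listed and -0.28 (-0.31 to -0.25) with LOC108351137. With AABR07044711.1 added, Pkm gave -0.08 (-0.12 to -0.03). The median of the 9 was -0.04, against 0.18 over all genes tested, the largest shift of all genes among these comparisons. In clusters matched by leading gene Tpi1 gave -1.07 (-1.66 to -0.50) in Ngp-led, -1.06 (-1.64 to -0.51) in Ifit3-led and -0.32 (-1.19 to 0.45) in Retnlg-led clusters, the last on 49 and 19 UMIs with overlapping intervals. Egln3 gave 0.84 (0.35 to 1.36) in Ngp-led clusters but 0.12 (-0.44 to 0.70) in Ifit3-led and 0.34 (-0.22 to 0.88) in Retnlg-led ones. The call of Egln3 also ended, at 0.43 (0.14 to 0.73), without the Defa11-led cluster 18 of UAC, and at 0.55 (0.28 to 0.83) with the Defa11-led cluster 18 of UAC with miR-330 added, while Tpi1 (-0.83 and -0.78) and Pkm (0.94 and 0.88) passed 1.5-fold both ways. The makeup of the class differed, since it held 4 clusters (7, 8, 12 and 18) in UAC and 3 (6, 9 and 15) in UAC with miR-330, and its 9 cycling markers summed to 421 and 146 CPM, with Pcna the most abundant and none at 0. The 11 listed T and NK markers summed to 157 and 48.7 CPM (Nkg7, with Cd4 at 0 in UAC). The 14 listed erythroid markers summed to 45.3 and 92.3 CPM (Hba-a1, with Hemgn at 0 in UAC and Ermap in UAC with miR-330). Their part in these ratios was not tested.

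In the erythroid-like clusters 10 genes were tested, 1 rose and 1 fell, beside 11.9% and 2.28% of 10808 genes. Pkm rose by 0.87 (95% interval 0.66 to 1.08) and Tpi1 fell, with -0.79 (95% interval -0.97 to -0.61). The pair of Pkm and AABR07044711.1 gave -0.49 (-0.58 to -0.40), in the opposite direction to the listed Pkm. On the deposited means Tpi1, at -0.55 (-0.73 to -0.38), lay inside 1.5-fold. Aldoa, at -0.57 (95% interval -0.64 to -0.50), lay just inside the 1.5-fold limit, and the median of the 10 was -0.29, against 0.13 over all genes tested. On the scale without ribosomal protein, immunoglobulin, haemoglobin and mitochondrial genes, 3 of the 10 genes passed the rule, in place of 2. Gapdh with LOC108351137 gave -0.45 (-0.48 to -0.43). Erythroid markers were 2157 and 3765 CPM in these clusters (Hba-a1), B markers 8212 and 8676 (Ebf1), cycling markers 2708 (Top2a) and 3825 (Mki67), neutrophil markers 1903 and 1157 (S100a9) and the 6 megakaryocyte markers 69.7 and 18.5 (Pf4), none of these at 0. Their part was not tested.

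In B-lineage cells 10 genes were tested, 0 rose and 2 fell, beside 6.44% and 6.23% of 12183 genes. Tpi1 fell, with -1.10 (95% interval -1.35 to -0.86), from 9.89 to 4.62 CPM, and Aldoa -0.75 (95% interval -0.81 to -0.69), from 141 to 83.8 CPM. Ldha (-0.56), Pgk1 (-0.49) and Gapdh (-0.49) were lower within 1.5-fold, and Egln3 (0.55) and Pkm (0.51) higher within it. Gapdh with LOC108351137 gave -0.63 (-0.67 to -0.60), past 1.5-fold, and Pkm with AABR07044711.1 -0.43 (-0.52 to -0.34), in the opposite direction to the listed Pkm. On the deposited means Aldoa, at -0.51 (-0.57 to -0.45), lay inside 1.5-fold, while Pkm (0.75) and Egln3 (0.79) were higher past it. With the unnamed clusters that had 5 or more B markers over their skeletal level added (14 of UAC, 5 and 8 of UAC with miR-330), a choice made after seeing the data, Ldha, at -0.60 (-0.64 to -0.56), was lower past it too. On the scale without ribosomal protein, immunoglobulin, haemoglobin and mitochondrial genes, Ldha was lower past it as well, at -0.62. The median of the 10 was -0.33, against 0.03 over all genes tested. Aldoa gave -0.67 (-0.79 to -0.54) in the cycling clusters, -0.63 (-0.78 to -0.49) in the Ms4a1-led ones and -0.73 (-0.81 to -0.65) in the remaining ones without Dntt, past 1.5-fold in CPM in each of these kinds of cluster. Tpi1 gave -0.97 (-1.42 to -0.54), -0.65 (-1.51 to 0.17) and -1.18 (-1.52 to -0.86) in the same order, and did not pass the rule in the Ms4a1-led ones, on 32 and 22 UMIs with overlapping intervals. Cycling markers, 9 of 9 above 0, summed to 1183 CPM (Top2a the most abundant) in UAC and 1591 (Mki67) in UAC with miR-330. Neutrophil markers, 16 of 16 above 0, summed to 2913 and 1496 CPM (S100a9), the 14 listed erythroid markers, none at 0, to 112 (Tfrc) and 234 (Hba-a1), and the 9 endothelial markers to 15.01 CPM (Egfl7) and 1.71 CPM (Vwf, with Tek at 0). The part of these markers was not tested.

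**Figure D3:**
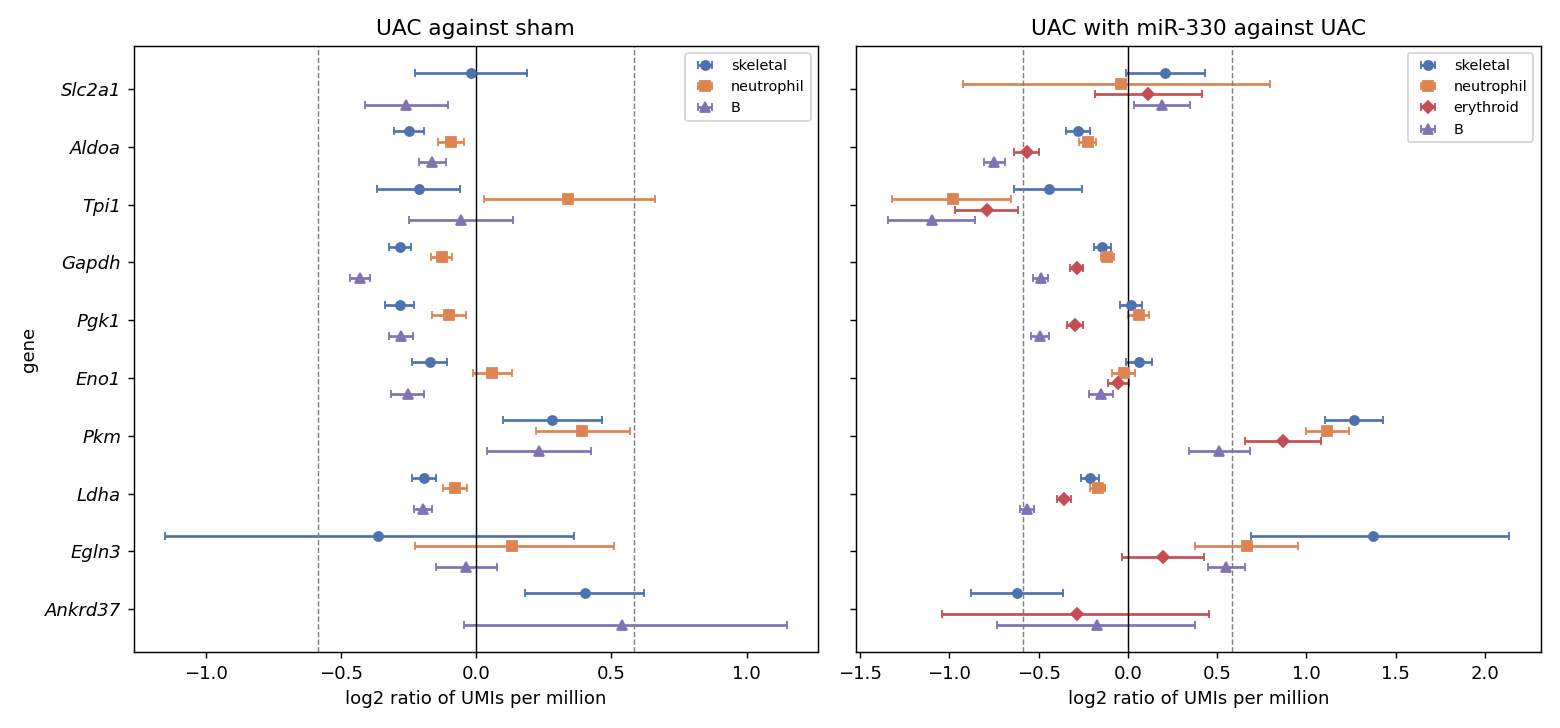
Log2 ratios of CPM for the 10 genes, UAC over sham on the left and UAC with miR-330 over UAC on the right, by class, with exact 95% counting intervals; dashed lines mark 1.5-fold, and genes under 50 UMIs are left out. On the right Pkm lies above 0 in all 4 classes (from 0.51 to 1.26) and Tpi1 below 0 (from -1.10 to -0.44), also on the deposited means. Pkm counted with AABR07044711.1, not drawn, lies below 0 in all 4 in CPM, but not in all on the deposited means.

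The log2 ratio of Tpi1 in UAC with miR-330 against UAC was below 0 in 4 of 4 classes, from -1.10 to -0.44, and remained so in 4 of 4 on the deposited mean counts. RefSeq lists 5 copies or pseudogenes of Tpi1, and none was counted with it, so that split reads were not examined for this gene. The ratios of Pkm as listed and Egln3 were above 0 in 4 of 4 classes on both scales. In CPM, however, Pkm counted with AABR07044711.1 was below 0 in 4 of 4, from -0.49 to -0.08. Taken alone, AABR07044711.1 gave -0.45, -0.29, -0.83 and -0.78 in skeletal-like, neutrophil-like, erythroid-like and B-lineage cells. Aldoa gave -0.28, -0.22, -0.57 and -0.75 in the same order. The ratios of Aldoa, Gapdh and Ldha were below 0 in 4 of 4 in CPM, but in 3, 2 and 2 of 4 on the deposited means. In UAC against sham, Aldoa, Gapdh, Pgk1 and Ldha were below 0 in 3 of 3 classes in CPM (Aldoa and Ldha not in each kind of neutrophil cluster, as given above), but in 1, 2, 2 and 1 of 3 on the deposited means. The deposited means raise every log2 ratio by 0.20 in UAC against sham and by 0.24 in UAC with miR-330 against UAC, and the median of all genes with them, so that ratios below 0 by less than this turn positive by construction. In UAC with miR-330 against UAC this holds for Pkm counted with AABR07044711.1 in skeletal-like cells (-0.17) and neutrophils (-0.08). Relative to the median of all genes in its comparison, each gene's ratio is the same on both scales. Outside the 4 classes, Slc2a1 passed the rule in CPM in the Fcnb-led cluster in both comparisons. It gave 0.64 (0.49 to 0.80) in UAC against sham and -0.81 (-0.94 to -0.68) in UAC with miR-330 against UAC.

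The other genes of the pathway were taken from fixed lists of 32 further glycolysis genes, 51 further HIF-1 pathway genes and targets, and 43 genes of pyruvate use and respiration. In skeletal-like cells, UAC against sham, 1 of 16 glycolysis genes tested rose and 0 fell (median 0.12), 1 of 44 HIF-1 genes rose and 1 fell (median 0.02), and 0 of 36 respiration genes changed (median 0.03), beside 7.3% of all genes tested that rose and 0.935% that fell. The genes that rose were the monocarboxylate transporter Slc16a1, 0.95 (95% interval 0.51 to 1.39), and Angptl4, an inhibitor of lipoprotein lipase, 1.22 (95% interval 0.99 to 1.47). The gene that fell was Flt1, a receptor for VEGF, with 87 UMIs in sham and 2 in UAC, -4.54 (95% interval -7.92 to -2.95). With 2 UMIs in UAC, the size of this ratio is known only within its interval. In this cluster the endothelial markers, a list that also holds Flt1, were lower as well, as given above.

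In neutrophils, UAC against sham, 0 of 15 glycolysis genes changed (median 0.02), 0 of 29 HIF-1 genes rose and 1 fell (median 0.10), and 0 of 34 respiration genes rose and 2 fell (median -0.04), beside 1.47% of all genes tested that rose and 1.44% that fell. They were the haem oxygenase Hmox1 (-1.71), the cytochrome oxidase subunit Cox4i2 (-1.55) and Ndufa4l2 (-1.32), and none of these passed the rule in the largest clusters alone, with 7 and 3, 32 and 15, and 33 and 18 UMIs. In B-lineage cells 0 of 23 glycolysis genes changed (median 0.02), while 5 of 41 HIF-1 genes rose and 3 fell (median 0.04), beside 2.16% of all genes tested that rose and 1.82% that fell. Flt1 (1.56), the nitric oxide synthase Nos2 (1.29), the growth factors Vegfb (0.87) and Vegfa (0.63) and Ndrg1 (0.62) rose, and those that fell included Rora (-1.62) and the collagen hydroxylase P4ha2 (-1.02). Without the Dntt-led clusters, 3 of these 8 no longer passed the rule, among them Flt1, at -0.26 (-1.64 to 1.06), and Vegfa, at 0.55 (0.10 to 1.02). In the largest clusters alone, the cycling ones, 6 of the 8 did not pass it, and Rora, on 13 and 27 UMIs, gave 1.12 (0.14 to 2.22). Of 37 respiration genes 0 rose and 2 fell, Cox4i2 (-0.93) and Ndufa4l2 (-0.84) (median of the 37 -0.11).

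In UAC with miR-330 against UAC, skeletal-like cells had 0 changed of 17 glycolysis genes (median -0.04), and 6 higher and 2 lower of 43 HIF-1 genes (median 0.22), beside 6.51% of all genes tested that rose and 5.62% that fell. P4ha1, a collagen prolyl hydroxylase, rose by 0.72 (95% interval 0.66 to 0.78), from 568 to 938 CPM. The others that rose were the adenylate kinase Ak4 (1.30), Bhlhe41 (0.77), the lysyl oxidase Loxl2 (0.70), the carbonic anhydrase Car12 (0.68) and the oxygen sensor Egln1 (0.66). Angptl4 (-1.97) and the chemokine receptor Cxcr4 (-0.67) fell, the latter inside 1.5-fold on the deposited means (-0.43). Angptl4 thus went from 26.6 CPM in sham to 62.2 in UAC and 15.8 in UAC with miR-330. Of 36 respiration genes 1 rose and 0 fell (median -0.03), the kinase Pdk4, by 1.35 (95% interval 0.97 to 1.75).

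In neutrophils of the same comparison 3 of 15 glycolysis genes rose and 1 fell (median 0.26): the hexokinases Hk1 (1.17) and Hk2 (0.82) and Pfkfb4 (0.70) were higher and Ldhc (-0.65) lower. Of 30 HIF-1 genes 5 rose and 3 fell (median 0.29). Nos2 rose from 239.8 to 488 CPM, 1.03 (95% interval 0.96 to 1.09), with Ndrg1 (0.93), Bhlhe40 (0.89), Egln1 (0.65) and Kdm4b (0.61), while Zfp395 (-1.31), the transferrin receptor Tfrc (-1.07) and Fam162a (-0.76) fell. Of 34 respiration genes 1 rose and 3 fell (median -0.07), with Pdk3 (0.66) higher and Pdp1 (-1.10), Ndufa4 (-0.75) and Mdh1 (-0.67) lower. These shares stand beside the 17.3% and 7.94% of all genes given above. The calls depended on the clusters of the class. Without the Defa11-led cluster 18 of UAC, 10 of the 16 genes named here no longer passed the rule (Pfkfb4, Ldhc, Egln1, Kdm4b, Zfp395, Tfrc, Pdk3, Pdp1, Ndufa4 and Mdh1), and Tfrc gave 0.10 (-0.64 to 0.84). With the Defa11-led cluster 18 of UAC with miR-330 added, 11 no longer did, Fam162a besides these 10, and Mdh1 gave 0.29 (0.10 to 0.48). On the deposited means 6 of the 7 that fell lay inside 1.5-fold or had overlapping intervals, Tfrc being the exception. Hk1, Hk2, Nos2, Ndrg1 and Bhlhe40 passed the rule under each of these settings.

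In erythroid-like cells 2 of 19 glycolysis genes rose and 1 fell (median 0.18), with Hk1 (1.16) and Slc16a1 (0.83) higher and Ldhb (-0.59) lower, the last inside 1.5-fold on the deposited means (-0.36). Of 34 HIF-1 genes 1 rose and 0 fell, Arnt (0.78), the partner of the HIF alpha subunits (median of the 34 0.13), and 0 of 35 respiration genes changed (median -0.08), beside 11.9% of all genes tested that rose and 2.28% that fell. In B-lineage cells 1 of 24 glycolysis genes rose and 2 fell (median -0.11), beside 6.44% of all genes tested that rose and 6.23% that fell, with Slc16a1 (0.62) higher and Gapdhs (-1.33) and Slc2a6 (-0.63) lower, Slc2a6 inside 1.5-fold on the deposited means (-0.39). Of 40 HIF-1 genes 0 rose and 3 were lower past the rule (median of the 40 0.01), but 2 of them, Flt1 (-1.56) and Rora (-1.06), rest on which Dntt-led clusters the class holds. Cluster 15 of UAC, with 41 of the 51 UMIs of Flt1, is in it, while cluster 14 of UAC with miR-330, where Flt1 and Emcn are among the leading genes and endothelial markers stand at 241 CPM, is not. With both clusters Flt1 gave 1.16 (0.69 to 1.67) and Rora -0.30 (-0.68 to 0.08), and with neither 0.62 (-0.56 to 1.94) and -0.23 (-0.76 to 0.30). Of 37 respiration genes 1 rose and 1 fell, Pdp2 (0.60) and Ndufa4l2 (-1.14) (median of the 37 -0.05), and with both Dntt-led clusters Pdp2, at 0.56, lay inside 1.5-fold. With the unnamed clusters 14 of UAC and 5 and 8 of UAC with miR-330 added, 5 of the 8 list genes past the rule in B-lineage cells no longer passed it, among them Slc16a1 (0.56), Rora (-0.34), Pdp2 (0.56) and Ndufa4l2 (-0.42). Slc16a1, which carries lactate, was thus higher past 1.5-fold in CPM in erythroid-like and B-lineage cells of UAC with miR-330, and in the latter inside it with these clusters added and, at 0.57, on the scale without ribosomal protein, immunoglobulin, haemoglobin and mitochondrial genes.

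HIF-1 binds the letters ACGTG or GCGTG. Of the 10 genes, 9 had 12 entries among 33469 RefSeq promoters of build GRCr8. At least 1 of the 2 motifs lay on either strand within the 250 bases before the transcription start in 7 of these 12 promoters and in 36.7% of all promoters. By gene, 6 of the 9 had such a promoter, as did 39.6% of the 27457 genes with an entry. In 6.21% of all promoters there were at least 3 matches. Ldha, Slc2a1 and Ankrd37 each had 4 in that window, with 4, 3 and 2 of them in the last 100 bases, and these 100 bases are shown because these genes stand for the last step, the first step and the HIF-1 response. Capitals mark the matches, which overlap where CACGTG is read on both strands. A match describes the sequence and was not tested as a binding site. No entry of Tpi1, Pkm or Egln3 held either motif in its window.
Slc2a1, chr5:138002422-138002521, plus strand: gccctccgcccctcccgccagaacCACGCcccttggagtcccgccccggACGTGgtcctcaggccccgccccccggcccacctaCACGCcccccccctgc
Ldha, chr1:106507992-106508091, plus strand: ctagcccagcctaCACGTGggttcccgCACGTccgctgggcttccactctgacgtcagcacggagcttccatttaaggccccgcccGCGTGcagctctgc
Ankrd37, chr16:53001407-53001506, plus strand: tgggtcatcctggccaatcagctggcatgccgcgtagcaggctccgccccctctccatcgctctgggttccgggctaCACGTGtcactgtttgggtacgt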

How the data were processed

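Single-cell RNA of condyles was measured in 3 libraries, 1 per condition, by a 3′ kit with UMIs. The submitters' processing notes name Cell Ranger 7.0, STAR and Seurat 4.0.1, and the builds GRCh38 and mm10, although the identifiers are rat Ensembl genes. Which annotation the tables were counted against is not given in the sources used here. The tables the authors deposited hold clusters made within 1 library each and a mean count per gene and cluster, a normalized signal that sums to 4541 in every cluster of sham, 5200 of UAC and 6123.5 of UAC with miR-330. The deposited log2 fold changes and adjusted p-values compare a cluster with the other clusters of its library, and neither was used.

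Each mean was divided by the smallest mean above 0 of its cluster, which gave the UMIs. In each library 100% of these values were whole, the farthest lying 1.0e-07 from a whole number. Identifiers with 1 name were added together. The smallest cluster held 1352666 UMIs in sham, 1796487 in UAC and 1691006 in UAC with miR-330, and cells per cluster were not known, so that doublets and free RNA were not examined.

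The 10 genes and the lists were chosen with earlier results of these data known, and the rule that turns markers into cluster names was set after seeing the data. A marker counted as enriched in a cluster with at least 10 UMIs, 50 CPM and 2 times the level in the rest of the library. A name needed 3 enriched markers and 2 times as many as the next class or the B lineage. Where no class but the B lineage and cycling cells reached 3, a cluster was named B lineage with 5 B markers at 4 times their skeletal level. Clusters with that many B markers and 3 enriched markers of a further class, too few for its name, stayed unnamed. The name was withdrawn where the 10 leading genes included another class's markers in larger number. Beyond the 10 genes, the genes named were those of the lists past 1.5-fold with intervals apart, at most 5 each way per list, class and comparison, the related enzymes, and the 5 most alike in profile. 1 gene of the lists is counted but not reported here by name. Egln1 in skeletal-like cells, Pip5k1b and Tspan6 were named beyond these, after their values were seen.

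A count model was not run, since 1 library per condition gives no spread between replicates. Ratio intervals are exact for 2 Poisson counts. The alternatives were the deposited means as scale, a scale that leaves out genes of ribosomal proteins, immunoglobulins, haemoglobins and the mitochondrial genome, 5 UMIs added, a minimum of 10 UMIs or none, a 2-fold rule and the largest cluster of a class alone. Chosen after seeing the data were classes with or without Defa11-led or Dntt-led clusters, the B lineage with the unnamed clusters that had its 5 markers, and Gapdh counted with LOC108351137 and Pkm with AABR07044711.1. Promoters and miRNAs came from RefSeq tables of GRCr8. Python 3.11.15, numpy 2.4.6, pandas 2.3.3, scipy 1.17.1 and matplotlib 3.10.9 were used. The comparison was also run on Poisson counts simulated from the whole sham library. Such counts hold no differences between rats or libraries, so that the run checks the calculation and not the calls given here.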

Additional observations from a re-analysis of the deposited data

Results flagged for a closer look

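Flt1, which encodes a VEGF receptor and is also a HIF-1 target, went in opposite directions in skeletal-like and B-lineage cells of UAC against sham. Its log2 ratio was -4.54 (95% interval -7.92 to -2.95) in the skeletal-like cluster, on 87 UMIs in sham and 2 in UAC. With 2 UMIs in UAC, the size of this ratio is known only within its interval. In B-lineage cells the log2 ratio was 1.56 (95% interval 0.78 to 2.48), on 17 UMIs in sham and 51 in UAC. The difference between the classes was not tested. Of the 51 UMIs in B-lineage cells of UAC, 41 lay in the Dntt-led cluster 15, where sham had 5 in its Dntt-led cluster 11. Without these clusters, a choice made after seeing the data, the B-lineage ratio was -0.26 (95% interval -1.64 to 1.06) on 12 and 10 UMIs, so that the directions no longer differed. In the skeletal-like clusters the 9 listed endothelial markers, which include Flt1, summed to 76.1 CPM in sham and 8.70 in UAC. Their part in the ratio of Flt1 was not tested.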

How the results depend on the processing

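Of 115 values recomputed under another setting, 93 stayed close, which means a median within the typical distance of a gene's ratio to the ends of its counting interval or a count within 1.5 times, and 22 did not. Closeness does not keep a sign or a count: 8 of the 54 medians changed sign, 1 of them from a main value farther from 0 than that distance, and 20 of the 61 counts differed from the main one. With the deposited means as scale, the median log2 ratio of the 10 genes in UAC against sham was -0.01 in skeletal-like cells, 0.19 in neutrophils and 0.02 in B-lineage cells, the last against -0.18 in CPM. In UAC with miR-330 against UAC it was 0.17 in skeletal-like cells, 0.19 in neutrophils, -0.05 in erythroid-like and -0.10 in B-lineage cells. These shifts follow from the scale itself, which moves all genes alike. On that scale 1 of the 10 genes passed 1.5-fold in skeletal-like cells and 1 in neutrophils of UAC against sham, and 1 in erythroid-like cells of UAC with miR-330 against UAC.

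With a minimum of 10 UMIs the neutrophil median of UAC against sham was 0.06, with 9 genes in place of 8. With the largest cluster of each class alone it was -0.08, with 1 gene past 1.5-fold, and in B-lineage cells of UAC with miR-330 against UAC the median was -0.73, with 7 genes past 1.5-fold. The last sets the cycling cluster 5 of UAC beside cluster 1 of UAC with miR-330, which is not cycling. With a 2-fold rule, UAC with miR-330 against UAC had 1 gene past it in neutrophils, 0 in erythroid-like and 1 in B-lineage cells.

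With every Defa11-led cluster, a choice made after seeing the data, the neutrophil median of UAC with miR-330 against UAC was 0.03, and the cause was not tested. With Gapdh counted with LOC108351137 and Pkm with AABR07044711.1, also chosen after seeing the data, that comparison had medians of -0.19 in skeletal-like and -0.46 in B-lineage cells, and 1 gene past 1.5-fold in erythroid-like cells.

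No paired analysis was possible because each condition had 1 library. UAC against sham gave no value for erythroid-like cells, since sham had no such cluster, and the skeletal-like and erythroid-like classes held 1 cluster each, so that taking the largest cluster changes nothing there. Egln3 in skeletal-like cells, Slc2a1 in neutrophils and Ankrd37 outside skeletal-like cells rest on few UMIs. Counting intervals leave out differences between rats, dissections and libraries.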
